A study of Mus musculus with 12 samples.

Results

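The genes of the cytosolic ribosome's proteins were followed across 12 RNA libraries of astrocytes purified at postnatal day 14 from the cerebral cortex of mice. Members were the protein-coding genes with a small-subunit symbol (Rps and a number, or Rpsa) or a large-subunit symbol (Rpl and a number, or Rplp0, Rplp1 and Rplp2), paralogs with an added letter or an added l included. This gave 84 of the 45777 genes in the table, 32 of the small and 52 of the large subunit, and 81 of them (32 small, 49 large) passed the filter on low counts. The 3 that did not are Rpl10l, Rpl39l and Rpl32l. Groups of 3 libraries, 4 in all, crossed genotype with early life stress. Cre- mice carried Nr3c1 flox/flox, the floxed glucocorticoid receptor gene, and AGR cKO mice carried Aldh1l1-CreERT2 in addition, a recombinase that tamoxifen activates and that the Aldh1l1 promoter drives in astrocytes. Pups of the stressed groups, named ESD in the labels, were kept from the dam for 3 hours each day between postnatal days 1 and 14, while control pups were not. Mice of all 4 groups received 4-hydroxytamoxifen on days 5 to 7, so only the AGR cKO groups held both drug and recombinase, and a difference between genotypes cannot be told apart from the presence of the transgene itself. Cells came from immunopanning and magnetic beads, and the labels do not say whether the 3 libraries of a group came from separate animals, so p-values measure only the spread between these libraries.

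A cytosolic ribosome joins a small subunit, which reads the messenger RNA, and a large subunit, which forms the peptide bond. Each ribosome holds a single copy of nearly every one of these proteins, the acidic stalk proteins Rplp1 and Rplp2 being present in more copies, and cells make them in step. Vertebrate ribosomal protein messenger RNAs usually begin with a C and a run of pyrimidines, the terminal oligopyrimidine or TOP tract, through which mTORC1 and Larp1 set how well they are translated. RNA levels, the only quantity measured here, do not report that translational step.

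The starts of members are shown first because the TOP tract is what this gene family is known to share. Whether the tract bears on the members' RNA levels was not tested. Annotated starts from RefSeq on build GRCm38.p6 were found for 64 of the 84 members, 76 starts in all. Each window below holds 30 bases, with the annotated start as base 16, and capitals mark the longest run of C and T that reaches to within 2 bases of that start. The first 6 are members with a long run, the next pair is Rps27 and its paralog Rps27l, and the last 3 are paralogs.
Rps6: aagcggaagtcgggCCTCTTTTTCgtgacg
Rplp2: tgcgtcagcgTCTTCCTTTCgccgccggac
Rpl35: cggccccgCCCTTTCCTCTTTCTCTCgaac
Rpl7a: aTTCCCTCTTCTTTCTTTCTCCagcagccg
Rps18: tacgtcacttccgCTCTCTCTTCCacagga
Rpl38: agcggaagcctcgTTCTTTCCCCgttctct
Rps27: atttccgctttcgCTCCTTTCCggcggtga
Rps27l: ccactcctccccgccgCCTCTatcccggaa
Rpl22l1: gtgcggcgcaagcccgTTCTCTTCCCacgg
Rpl7l1: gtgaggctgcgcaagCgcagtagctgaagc
Rpl3l: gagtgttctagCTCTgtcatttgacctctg
These windows lie at chr4:86857353-86857382 (minus strand) for Rps6, chr7:141447636-141447665 (plus) for Rplp2, chr2:39005117-39005146 (minus) for Rpl35, chr2:26910792-26910821 (plus) for Rpl7a, chr17:33955651-33955680 (minus) for Rps18 and chr11:114668565-114668594 (plus) for Rpl38. Those of the paralogs lie at chr3:90213634-90213663 (minus) for Rps27, chr9:66946071-66946100 (plus) for Rps27l, chr3:28805493-28805522 (plus) for Rpl22l1, chr17:46782642-46782671 (minus) for Rpl7l1 and chr17:24727811-24727840 (plus) for Rpl3l. In Rps6 the run is 10 bases long, in Rpl35 it is 18 and in Rpl7a it is 21, whereas Rpl7l1 has a run of 1 base and Rpl3l a run of 4. Not shown is Rpl22, a core member, with runs of 1 and 4 bases at its 2 annotated starts. The second starts of Rpl3l and Rps27l, also not shown, have runs of 1 and 2 bases. The windows were picked, so they do not set core members apart from paralogs.

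A C within 2 bases of an annotated start, followed directly by at least 4 bases that are each C or T on the transcribed strand, was present in 22 of the 64 matched members (34.4%) and in 10.6% of the 27025 genes with a start in the same table. The letters CCGGAAG, the core of sites bound by ETS family factors, stood on either strand of the 300-base promoter window in 26 members (40.6%) and in 9.93% of all genes. The letters TATAAA, on either strand, stood in 8 members (12.5%) and in 15.7% of all genes. These are matches of letters, not binding sites, and an annotated start a few bases away from the used one would hide a TOP tract. Members lie on 19 chromosomes, 14 of the members on chromosome 7. By the deposited loci and gene types, the loci of 30 members hold 59 small nucleolar RNA genes. The loci of 12 members overlap another protein-coding gene, and whether the authors' counting used the strand is not given in the sources used here, so reads of such pairs (Rpl23a and Tlcd1, Rpl19 and Cacnb1) may not be separable.

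Total counts were 42603546 to 52130081 per library. Nr3c1 was 199 to 237 CPM (counts scaled to a common library size with TMM factors) in the 6 Cre- libraries and 66.6 to 108 CPM in the 6 AGR cKO libraries, which matches the genotype labels. The 12 astrocyte markers summed to 39200 to 54500 CPM, the glutamate transporter Slc1a3 alone averaging 7912 to 9188 CPM in the 4 groups, and microglial and macrophage markers summed to 164 to 1030 CPM, neuronal markers to 423 to 609 CPM and endothelial markers to 224 to 1710 CPM. Libraries correlated at r = 0.9648 to 0.9889 across genes, and no pair held identical values.

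Ribosomal protein messenger RNAs took 0.601 to 0.809% of all counts, and 2.13 to 2.85% of TPM, the deposited level that also divides by transcript length. In Cre- mice the share of counts was 0.675 ± 0.0753% (SD, n = 3) for control and 0.745 ± 0.103% for ESD. For AGR cKO it was 0.659 ± 0.0272% without and 0.709 ± 0.0429% with stress. These shares overlapped between all groups within each genotype and each condition. Large-subunit counts were 1.60 to 1.73 times those of the small subunit in every library. The 227 pseudogene entries with ribosomal protein symbols, which resemble the members and can take or give reads, held 1.37 to 1.63% as many counts as the members.

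Most members sat in a narrow band of levels. The median over the 81 tested members was 294 TPM, 326 for the small and 267 for the large subunit, against 12.6 TPM over all genes tested, and 75 of the 81 stood at 100 TPM or more. The highest was Rps9, a small-subunit protein at the entry channel of the messenger RNA, at 625 TPM (527 to 748 over the 12 libraries). Rpl23a (572 TPM), Rpl7a (567 TPM), the stalk protein Rplp1 (560 TPM) and Rpl7 (538 TPM) followed. The ranges of these 5 overlapped, so their order is not fixed by these libraries.

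**Figure D1:**
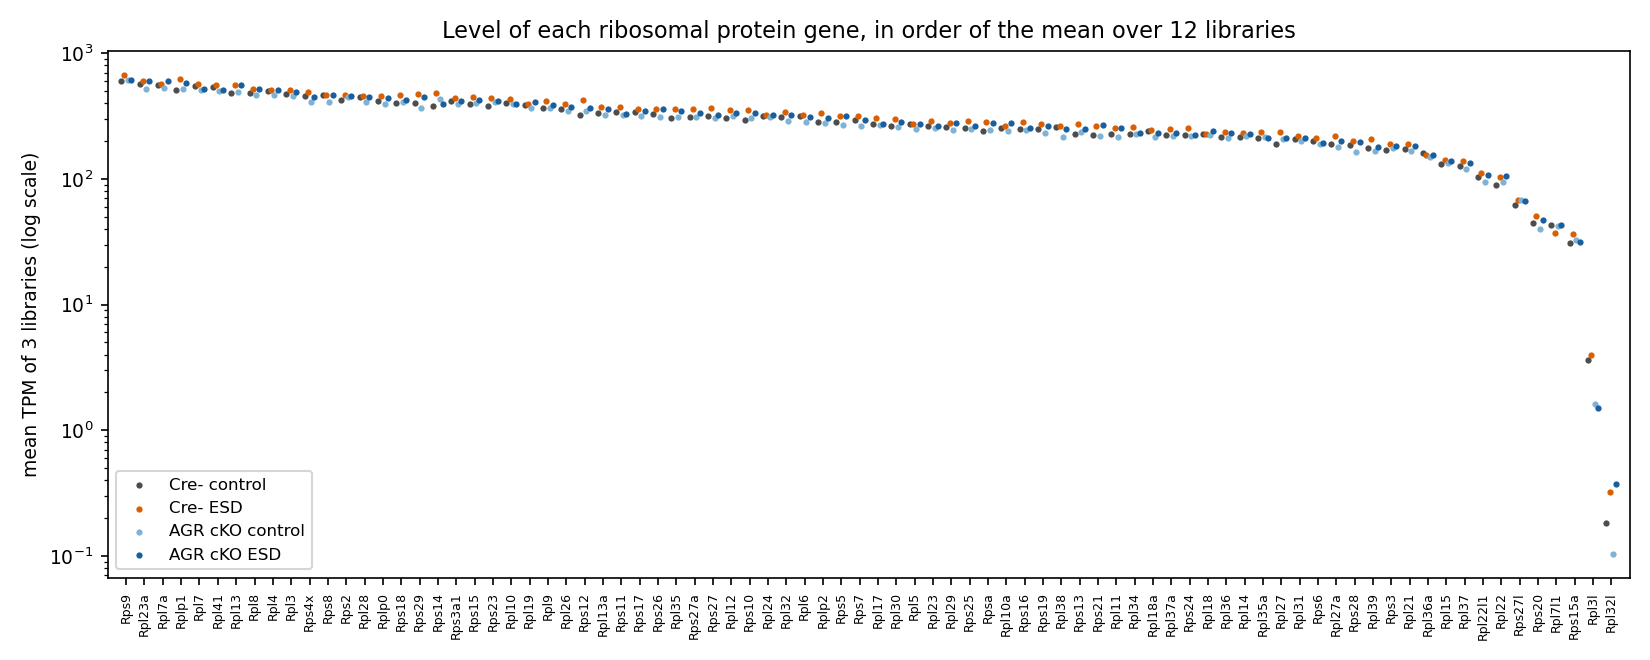
Level of each ribosomal protein gene (horizontal axis, in order of the mean over 12 libraries) as the mean TPM of 3 libraries on a log axis, 1 point per group; Rpl10l and Rpl39l, listed at 0, are not drawn. The band above 100 TPM holds 75 of the 81 tested genes, and Rpl3l at 2.69 TPM and Rpl32l at 0.247 TPM stand far under it.

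At the lower end, Rps15a (32.8 TPM) and Rps20 (45.5 TPM), both core small-subunit proteins, had counts like those of other members, on average 2761 and 2562 per library. The transcript models behind their TPM are 5136 and 3446 bases long, against a median of 740 bases over the tested members, and TPM divides by that length. The paralogs Rpl3l (2.69 TPM), Rpl7l1 (41.2 TPM) and Rps27l (66.3 TPM) were low too. Rpl22, a core large-subunit protein with models of 2206 bases on average, stood at 98.0 TPM, and its paralog Rpl22l1 at 104 TPM.

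Each of these paralogs was lower per length than, or close to, its partner. Rpl3, which lines the peptidyl transferase centre, was at 483 TPM and its striated-muscle paralog Rpl3l at 2.69 TPM. Rpl7 was at 538 TPM and Rpl7l1, a paralog linked to ribosome assembly, at 41.2 TPM. Rps27 was at 329 TPM and Rps27l, a p53-responsive paralog, at 66.3 TPM. Rpl22 and Rpl22l1, a pair known to regulate each other's expression, were at 98.0 and 104 TPM, with overlapping ranges of 84.8 to 114 and 88.8 to 120 TPM. Rpl10l and Rpl39l, paralogs of the testis, had no count in any of the 12 libraries, while their partners Rpl10 and Rpl39 stood at 405 and 183 TPM. A count of 0 allows up to 3 counts, which is 0.0575 to 0.0704 CPM here and covers counting error only. Rpl32l had 0 to 9 counts per library and was not tested. Rps4x was at 453 TPM, and its partner Rps4l is a transcribed pseudogene in the table and so no member.

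Members varied little between libraries and did so together. The SD of log2 CPM over the 12 libraries had a median of 0.161 over the members and 0.239 over all genes tested, and within groups it was 0.153 and 0.215. The members' median level was 294 TPM against 12.6 TPM over all genes tested. The SDs were not compared at matched levels, so the lower spread is not shown to be particular to the members. The highest library was 1.44 times the lowest for the median member, from 1.24 times for Rpl24 to 1.86 times for Rps29, apart from Rpl3l at 5.73 times. To compare libraries, each gene's log2 CPM was taken as the deviation from its own mean over the 12 libraries. In Cre- control 1, 2 and 3 the median deviation of the 81 members was 0.025, -0.172 and -0.048. In Cre- ESD 1, 2 and 3 it was 0.274, 0.214 and -0.112. In AGR cKO control it was -0.219, -0.029 and -0.051, and in AGR cKO ESD it was 0.168, -0.011 and -0.042.

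Thus 3 libraries stood high, all of stressed pups: Cre- ESD 1 and 2, with 80 of 81 members above their own mean in each, and AGR cKO ESD 1, with 79. These 3 held the highest value of 75 of the 81 members: 46 in Cre- ESD 1, 17 in Cre- ESD 2 and 12 in AGR cKO ESD 1. Cre- ESD 3 did not share this, with 5 members above their mean, and stood below Cre- control 1 and 3. AGR cKO control 1 and Cre- control 2 stood lowest and held the lowest value of 42 and 25 members. The same 3 high libraries also had the most counts, 50266660, 50658633 and 52130081, and AGR cKO control 1, the lowest in members, had 49803711. The part of depth in these differences was not tested.

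**Figure D2:**
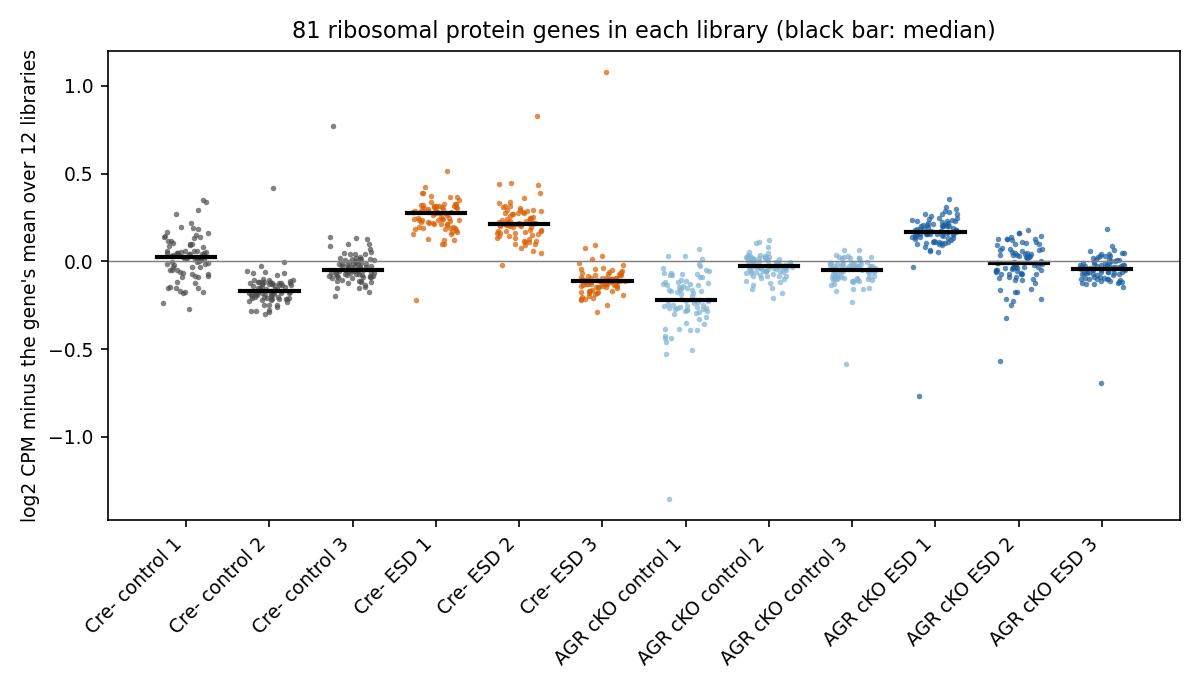
Each point is 1 of 81 ribosomal protein genes in 1 library, as log2 CPM minus that gene's mean over the 12 libraries (vertical axis), with libraries on the horizontal axis, coloured by group; black bars are medians. Cre- ESD 1, Cre- ESD 2 and AGR cKO ESD 1 sit above 0 as a block (medians 0.274, 0.214 and 0.168), and Cre- ESD 3 sits below it (median -0.112).

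The first comparison asked what early stress did in mice with an intact receptor gene. In Cre- mice 80 of the 81 members were higher on average in ESD than in control libraries, with a median log2 fold change of 0.20, against -0.02 and 45.9% higher over all genes tested. No member passed an adjusted p of 0.05, and neither did any other gene (0% of 19163 in either direction, by edgeR). At an unadjusted p under 0.05, 17 members were higher (11 small, 6 large), where 2.70% of all genes were, and none was lower, where 4.49% were. Members share libraries and move together, so these 17 are not separate results. In bulk RNA, fewer cells of a type and less RNA per cell cannot be told apart.

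Rps14, a small-subunit protein at the platform that binds the messenger RNA exit, had the smallest p. It measured 74.1, 75.8 and 85.5 CPM in Cre- control and 114, 103 and 92.1 CPM in Cre- ESD. All 3 stressed libraries lay above all 3 controls, including Cre- ESD 3, where most other members were low. The log2 fold change was 0.39 ± 0.10 (SE), with an adjusted p of 0.627. Rpl27, a large-subunit protein, measured 48.4, 46.7 and 49.5 CPM in Cre- control and 65.3, 63.0 and 54.8 CPM in Cre- ESD, again without overlap, at 0.34 ± 0.10 (adjusted p 0.627). Rpl22l1 was the only other member without overlap, and 3 of 81 is near the 4.68% of all genes whose Cre- ESD libraries all lay above the controls. No member lay below without overlap, where 6.39% of all genes did.

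More typical in its pattern over the libraries was Rps12, a small-subunit protein and snoRNA host, although its log2 fold change was the largest of all members. It measured 61.8, 55.1 and 62.2 CPM in Cre- control and 90.2, 91.5 and 58.3 CPM in Cre- ESD. The first 2 stressed libraries were far above the controls and the last lay among them (0.42 ± 0.17, adjusted p 0.671). Rps23, at the decoding centre, followed the same form at 70.1, 71.0 and 74.6 CPM against 98.7, 89.0 and 73.2 CPM (0.28 ± 0.10, adjusted p 0.656). Rplp1 and Rplp2, which form the stalk that recruits elongation factors, had log2 fold changes of 0.35 ± 0.15 and 0.27 ± 0.16, and their anchor Rplp0 of 0.20 ± 0.11. Rpsa, the laminin receptor precursor of the small subunit, had 0.29 ± 0.14, and Rps6, the substrate of S6 kinase, 0.13 ± 0.12.

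The single member that was lower was Rpl7l1, at 38.7, 36.5 and 39.1 CPM in Cre- control and 32.0, 36.7 and 33.9 CPM in Cre- ESD. The groups overlapped by 1 library, and the log2 fold change was -0.16 ± 0.08 (adjusted p 0.708).

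How far these counts rest on single libraries was large. Without Cre- ESD 3 the median log2 fold change of the members was 0.30 and 60 of 81 reached an unadjusted p under 0.05. Without Cre- ESD 1 the median was 0.13 and 2 did, and without Cre- ESD 2 it was 0.15 and 2 did. Leaving out Cre- control 2 gave 0.15 and 5, Cre- control 3 gave 0.21 and 9, and Cre- control 1 gave 0.24 and 13. The number of higher members stayed between 75 and 80 of 81, and no member passed the adjusted threshold in any of these fits. For these and the later fits with a library left out, the share of all genes at the unadjusted threshold is not given here. Those counts therefore have no background to be read against.

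In AGR cKO mice, stress was compared in libraries that share none with the Cre- comparison. There 77 of 81 members were higher in ESD, with a median of 0.14 against 0.00 and 51% higher over all genes. No member and no other gene was called (0% in either direction, by edgeR). At an unadjusted p under 0.05, 6 members were higher (Rpl19, Rpl23a, Rpl7a, Rps21, Rps28 and Rps29), where 3.25% of all genes were, and none was lower, where 4.33% were.

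Rps29, a zinc-binding protein of the small subunit's head, had the largest log2 fold change, at 39.5, 53.2 and 54.3 CPM in control and 69.1, 57.0 and 59.4 CPM in ESD. All ESD libraries lay above all controls, with AGR cKO control 1 well below the rest (0.34 ± 0.14, adjusted p 0.647). Rpl19, a large-subunit protein at a bridge between the subunits, measured 97.3, 109.7 and 109 CPM against 137, 130 and 114 CPM (0.27 ± 0.11, adjusted p 0.647). Rpl7a, on the solvent side of the large subunit, measured 154, 164 and 161 CPM against 198, 187 and 168 CPM (0.21 ± 0.08, adjusted p 0.647). In each of the 3 genes AGR cKO ESD 1 was the highest library of its genotype. All ESD libraries lay above all controls for 18 of the 81 members, 5 small and 13 large, and for 7.94% of all genes. No member lay below without overlap, where 8.65% of all genes did. The 4 members that were not higher were Rpl3l (-0.14 ± 0.32), Rps14 (-0.10 ± 0.10), Rpl35a (-0.01 ± 0.12) and Rps15a, at -0.00396.

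This comparison too rested on few libraries. Without AGR cKO ESD 1 the median was 0.07, 65 members were higher and 0 reached an unadjusted p under 0.05, and without AGR cKO control 1 the values were 0.10, 70 and 0. Without AGR cKO ESD 2 the median was 0.16 with 1 such member. Dropping a Cre- library also moved this count through the shared spread: it was 15 without Cre- ESD 3.

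**Figure D3:**
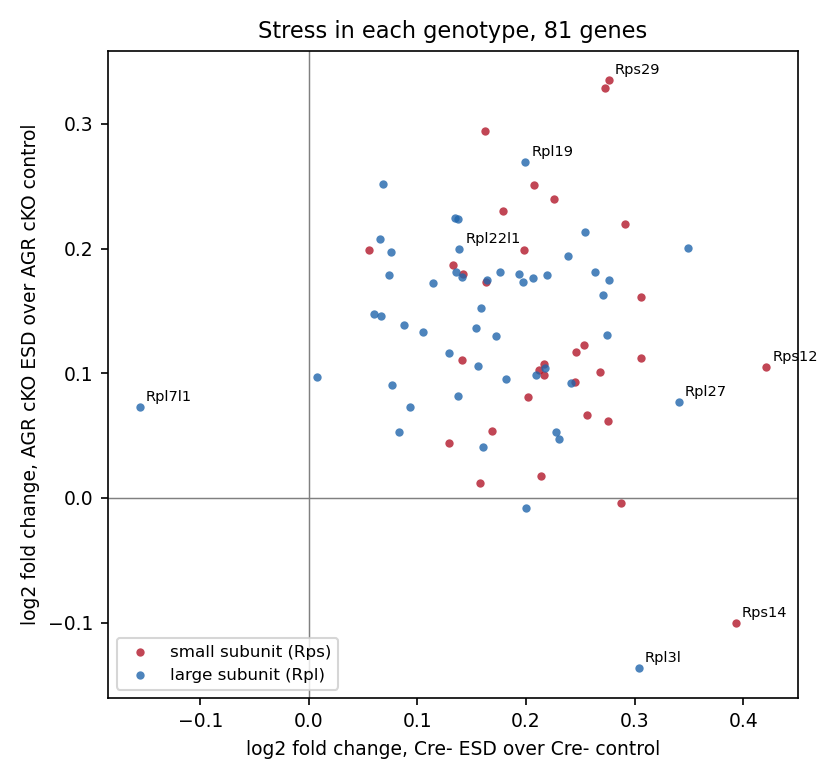
Log2 fold change of ESD over control in Cre- libraries (horizontal axis) and in AGR cKO libraries (vertical axis) for the 81 tested ribosomal protein genes, small subunit in red and large subunit in blue. Most points fall to the upper right; Rps14 (0.39 and -0.10) and Rpl3l (0.30 and -0.14) lie to the lower right and Rpl7l1 (-0.16 and 0.07) to the left.

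Averaged over both genotypes, 80 of 81 members were higher in ESD, with a median of 0.16 against -0.01 and 48% higher over all genes. None was called (0% of all genes). An unadjusted p under 0.05 was reached by 32 members in the higher direction (14 small, 18 large), where 4.21% of all genes did, and by none in the lower, where 6.16% did. Rpl19 (0.23 ± 0.07), Rps29 (0.31 ± 0.10) and Rps21 (0.30 ± 0.10) had the smallest p, with adjusted p of 0.438 to 0.448. The 32 became 64 without Cre- ESD 3, 9 without Cre- ESD 2, 13 without Cre- ESD 1, and 11 without AGR cKO ESD 1 or without AGR cKO control 1. It was 16 without Cre- control 2.

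Whether stress acted differently in the genotypes was tested as the interaction, and no member passed (0% of all genes). The interaction was above 0 for 31 of 81 members, against 53.1% of all genes, and its median was -0.04 against 0.02. The sign of that median turned without Cre- ESD 1 (0.03). Only Rps14 had an unadjusted p under 0.05, in the lower direction, where 1.93% of all genes did, and no member had one in the higher direction, where 2.56% did. Its AGR cKO values were 89.1, 89.0 and 86.6 CPM in control and 93.6, 73.4 and 80.0 CPM in ESD. Stressed libraries were thus above controls in Cre- mice and on both sides of them in AGR cKO mice. The interaction was -0.49 ± 0.15 on the log2 scale, with an adjusted p of 0.999.

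Genotype was compared within each condition, and these comparisons share their control and ESD libraries with those above. In control mice 26 of 81 members were higher in AGR cKO than in Cre-, with a median of -0.04 against -0.01 and 47.3% higher over all genes. The sign of the members' median turned without AGR cKO control 1 (0.02). No member was called, where 0.0104% of all genes were called higher and 0.00522% lower. At an unadjusted p under 0.05 no member was higher, where 4.28% of all genes were, and 1, Rpl3l, was lower, where 5.94% were. All AGR cKO control libraries lay above all Cre- control libraries for Rpl22, Rps14, Rps2 and Rps23, where 8.54% of all genes did. All lay below for Rpl23a and Rpl3l, where 8.39% of all genes did. In ESD mice 7 of 81 members were higher in AGR cKO, with a median of -0.08 against 0.00 and 50.3% higher over all genes, and this median was -0.20 without Cre- ESD 3 and -0.01 without Cre- ESD 1. A single member was called, Rpl3l, lower in AGR cKO, where 0.459% of all genes were called lower and 0.584% higher. At an unadjusted p under 0.05, Rpl7l1 was higher, where 7.92% of all genes were, and Rpl3l and Rps14 were lower, where 7.68% were. Groups did not overlap for Rpl3l on the lower side, where 9.64% of all genes did so, and for no member on the higher side, where 10.3% did.

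Rpl3l, which replaces Rpl3 in ribosomes of heart and skeletal muscle, lies at chr17:24727829-24736149 on mm10. It measured 1.88, 1.97 and 2.53 CPM in Cre- control and 2.11, 2.63 and 3.14 CPM in Cre- ESD. In AGR cKO it measured 0.547, 1.48 and 0.960 CPM in control and 0.843, 0.975 and 0.888 CPM in ESD. Every AGR cKO library lay below every Cre- library, on 28 to 68 counts against 84 to 144 counts. The log2 fold change between genotypes was -1.10 ± 0.31 in control (adjusted p 0.275) and -1.54 ± 0.31 in ESD (adjusted p 0.0459). Averaged over both conditions it was -1.32 ± 0.22 (adjusted p 0.0114), the only member called in that comparison, where 1.94% of all genes were called lower and 1.55% higher. There 8 of 81 members were higher (median -0.06), against 49.4% of all genes, and beside Rpl3l none had an unadjusted p under 0.05, where 8.7% of all genes did in the higher and 11.3% in the lower direction. The difference between the genotype effects in control and ESD was not called (-0.44 ± 0.44, adjusted p 0.999).

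The averaged call held in all 12 fits that left out a library (adjusted p 0.0156 to 0.037) and under every other setting run (at most 0.012). The call within ESD held in 2 of those 12 (adjusted p 0.0436 to 0.157). Its partner Rpl3 differed far less, at 225 ± 14.4 and 250.4 ± 23.3 CPM (SD, n = 3) in Cre- control and ESD and at 221 ± 7.14 and 243 ± 19.8 CPM in the same groups of AGR cKO mice (averaged genotype effect -0.04 ± 0.06). The authors' transcript table spreads the gene over 5 models, and the largest mean share of its TPM was 41.2%, for a model of 2170 bases that starts inside the gene at base 24730869. That share ranged from 0 to 78.6% between libraries, so these few reads do not settle which transcript was present.

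Averaged over both conditions, markers of several other cell types were lower in AGR cKO too, and neuronal markers were not. All 12 microglial and macrophage markers were lower on average in AGR cKO (median -1.09 over both conditions). Their sum was 356 to 1030 CPM for Cre- control libraries and 487 to 835 CPM for Cre- ESD, against 192 to 455 CPM for AGR cKO control and 164 to 438 CPM for AGR cKO ESD. All 8 endothelial markers were lower (median -1.05), with sums of 321 to 1710, 379 to 1010, 310 to 666 and 224 to 429 CPM in the same order. None of either list was called. All 5 erythroid markers (median -1.04) and all 8 mural cell and fibroblast markers (median -0.26) were lower as well, with none called. Of the 8 ependyma and choroid plexus markers 7 were lower (median -0.76), and Ccdc153, Tmem212 and Dnah11 were called (adjusted p 0.0226, 0.0146 and 0.0384). The 1 other marker of that list was higher, with a log2 fold change of 2.75, and was not called. The lowest of the list was at -1.17. Of the 12 astrocyte markers 8 were lower (median -0.09), with Gjb6 and Aldoc called lower (adjusted p 0.0218 and 0.0495) and Aqp4 called higher (0.50 ± 0.11, adjusted p 0.0315). Of 7 oligodendrocyte lineage markers 5 were lower (median -0.07), and 7 of 12 neuronal markers were higher (median 0.04), with none called. That neuronal average joins opposite directions. All 12 neuronal markers were higher in AGR cKO in control (median 0.48), and 10 of 12 were lower in ESD (median -0.49). Mural cell and fibroblast markers were lower for 4 of 8 in control (median -0.02) and for all 8 in ESD (median -0.45). The part of these cells in the Rpl3l difference was not tested.

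**Figure D4:**
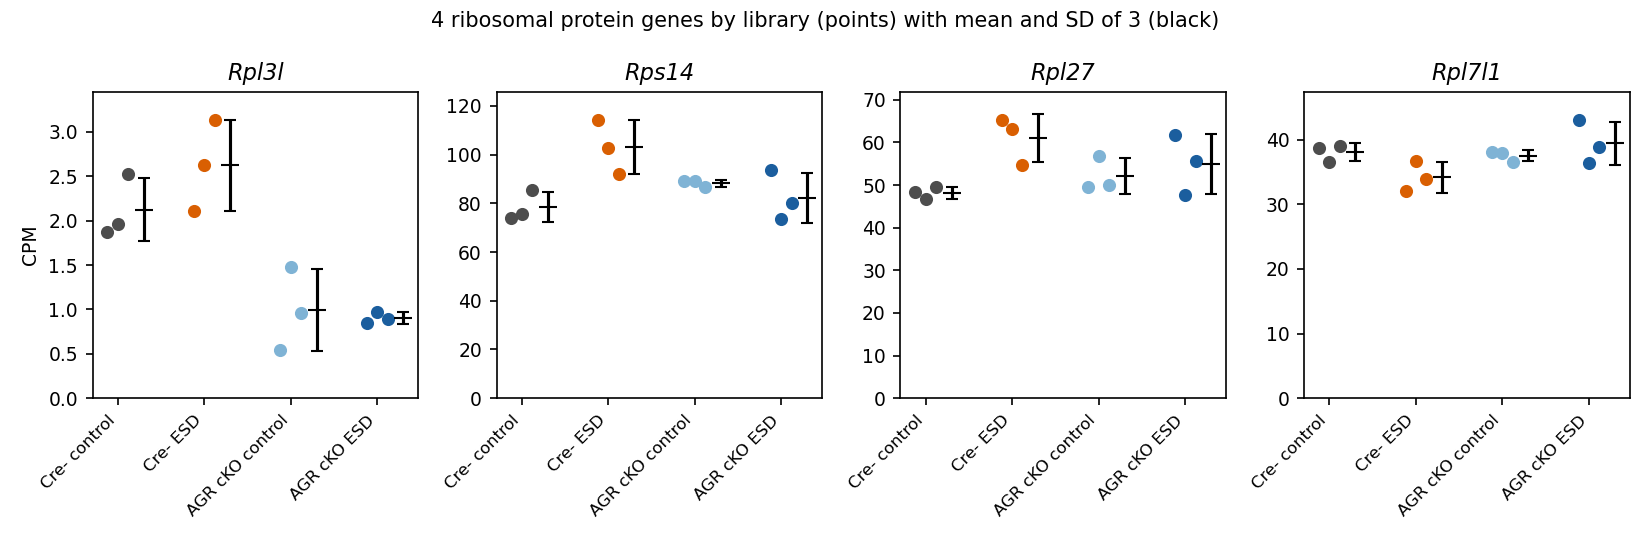
CPM of Rpl3l, Rps14, Rpl27 and Rpl7l1 in each library (points, vertical axis from 0, a scale for each gene), by group on the horizontal axis, with the mean and SD of 3 libraries in black. Rpl3l is at 0.547 to 1.48 CPM in the 6 AGR cKO libraries and at 1.88 to 3.14 CPM in the 6 Cre- libraries, and Rps14 and Rpl27 are higher in Cre- ESD than in Cre- control without overlap.

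Rpl7l1, which alone was lower on average under stress in Cre-, had the smallest p among members higher in AGR cKO ESD than in Cre- ESD. It measured 38.0, 37.9 and 36.5 CPM in AGR cKO control and 43.1, 36.4 and 38.8 CPM in AGR cKO ESD. Against the Cre- ESD values above, the ranges overlapped by 1 library (0.21 ± 0.08, adjusted p 0.248). Other members with the smallest p on the lower side were Rps14 (-0.32 ± 0.10, adjusted p 0.172) and Rps15a (-0.22 ± 0.12, adjusted p 0.372). Averaged over conditions, Rps4x was at -0.16 ± 0.09 and Rpl7 at -0.12 ± 0.07, and neither passed (adjusted p 0.348 and 0.397).

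Rps24 is known for alternative small exons at the end of its coding part, which change the last residues of the protein. The coding ends of 3 of its 7 transcript models are shown because the deposited transcript table separates these models. Each is given as the last 30 coding bases with the stop codon in capitals. Sequences are from the GENCODE M21 transcripts on GRCm38, plus strand of chromosome 14.
Rps24, 130 residues: aaggccaatgttggtgctggcaaaaagTGA
Rps24, 131 residues: gccaatgttggtgctggcaaaaagaaaTGA
Rps24, 133 residues: gttggtgctggcaaaaagccaaaggagTAG
The transcript that ends in the 130-residue form skips the exon of 18 bases and uses that of 20 bases, the 131-residue form uses both, and the 133-residue form skips both. These 3 models took 25.1% (17.4 to 45.5% over the libraries), 6.62% (3.11 to 9.69%) and 2.0% (1.09 to 4.51%) of the gene's TPM, the level that divides by transcript length. Of these 3 models, that of the 130-residue form had the largest share in every library, and the order of the other forms was not compared. In Cre- mice its share was 23.2 ± 3.73% (SD, n = 3) in control and 24.7 ± 5.17% in ESD libraries, and in AGR cKO mice 29.9 ± 14.3% and 22.7 ± 1.27%, differences within 1 SD of the more variable group. The other 4 transcript models took the rest of the TPM, 30.1% in a model of 1677 bases. Their coding ends were not read, so these shares do not show which protein form was most used. At the level of the gene, Rps24 was at 112 ± 9.95, 129.5 ± 24.5, 113 ± 5.72 and 122 ± 13.5 CPM in the same order of groups.

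Genes that work beside the ribosomal proteins were read from lists. Of 17 translation factors with TOP-type messenger RNAs, such as Eef1a1 and Tpt1, 15 were higher under stress in Cre- (median 0.12) and 16 in AGR cKO (median 0.05), with none called. Eef1a1, which brings aminoacyl-tRNA to the ribosome, averaged 1350 ± 186 CPM (SD, n = 3) in Cre- control and 1541 ± 177 in Cre- ESD.

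Ribosome assembly genes had another balance of directions. Of 28 biogenesis genes, 7 were higher and 21 lower under stress in Cre- (median -0.10), and 18 were higher in AGR cKO (median 0.02), with none called. At an unadjusted p under 0.05, 6 were lower in Cre-, where 4.49% of all genes were, and none was higher, where 2.70% were. In AGR cKO none reached it in either direction. The smallest p was that of Nop16, a nucleolar factor of large-subunit assembly, at -0.46 ± 0.12 in Cre- (adjusted p 0.627). In ESD mice 24 of the 28 were higher in AGR cKO than in Cre- (median 0.14), and none was called. Among 10 snoRNA host genes, whose RNAs also begin with TOP-type tracts, 4 were higher under stress in Cre- and 9 in AGR cKO (medians -0.05 and 0.05). Of 78 mitochondrial ribosomal proteins, encoded by other genes and used in the organelle, 42 were higher under stress in Cre- (median 0.02) and 68 in AGR cKO (median 0.13), none of them called. At an unadjusted p under 0.05, 18 were higher in AGR cKO, where 3.25% of all genes were, and none was lower, where 4.33% were. In Cre- 1 was higher and none lower.

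The 20 genes of mTORC1, Myc and TOP control, which act upstream of ribosomal protein synthesis, had medians of -0.01 and 0.00 under stress, with none called. Single genes of the list ran from -0.46 to 0.85 in Cre- and from -0.41 to 0.23 in AGR cKO. At an unadjusted p under 0.05, 1 was higher in each genotype, where 2.70% and 3.25% of all genes were. None was lower, where 4.49% and 4.33% were. Between genotypes, Mycl, a Myc family transcription factor, was lower in AGR cKO (-1.83 ± 0.34 in ESD, adjusted p 0.0353, and -1.52 ± 0.24 averaged, adjusted p 0.0087). Sesn1, which restrains mTORC1 when leucine is short, was lower in the averaged comparison (-0.55 ± 0.12, adjusted p 0.0293). The other 18 of the list were not called.

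**Figure D5:**
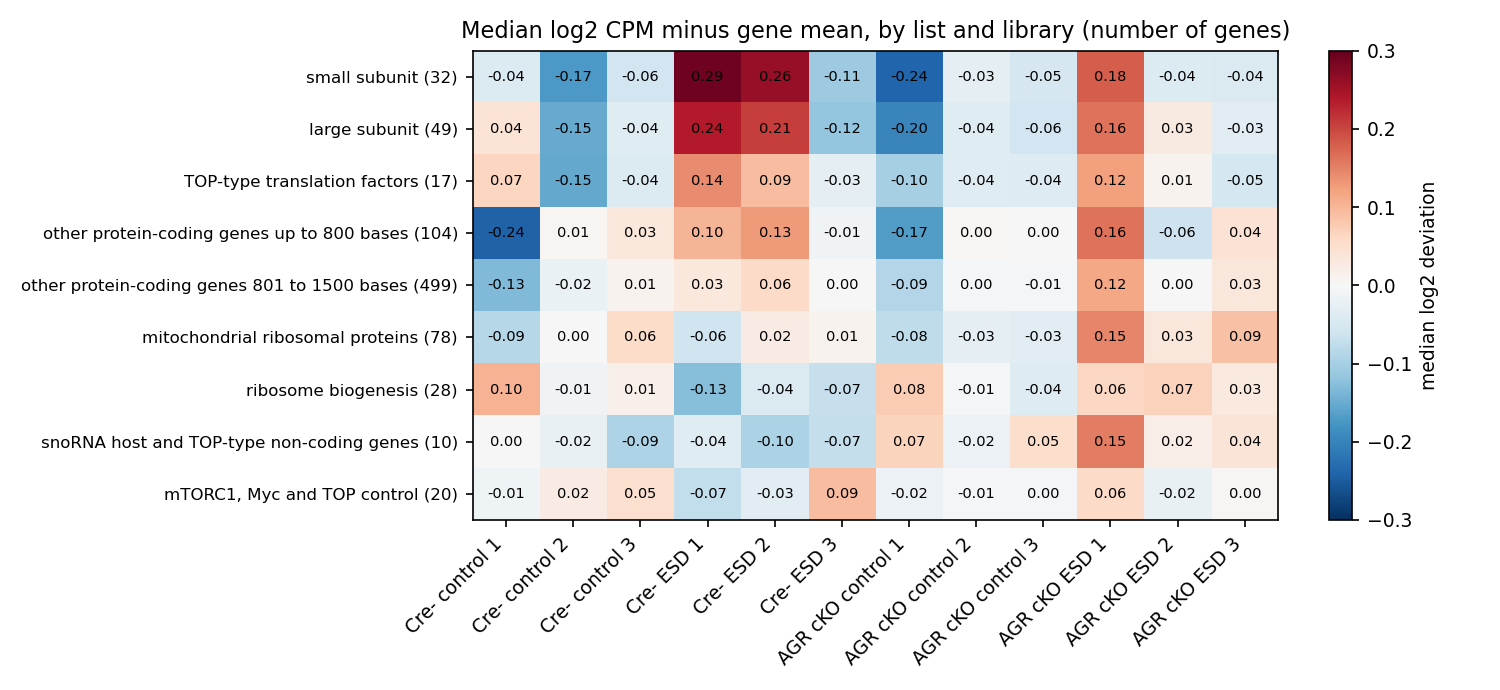
Median log2 CPM minus each gene's own mean over 12 libraries, for 9 gene lists (vertical axis, number of genes in brackets) in each library (horizontal axis), red above and blue below 0. The top rows, the small and the large subunit, share 1 pattern over the libraries, with 0.29 and 0.24 in Cre- ESD 1.

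Length moved with the stress differences in other protein-coding genes. Members have short transcripts, with a median of 740 bases against 3688 in other protein-coding genes of at least 20 CPM. The 104 other protein-coding genes of up to 800 bases had medians of 0.10, 0.13 and -0.01 in Cre- ESD 1, 2 and 3, and 0.16 in AGR cKO ESD 1. They stood at -0.24 in Cre- control 1, where the members were at 0.025. Under stress in Cre- 86.5% of those short genes were higher (median 0.13), against all 45 members of that length (median 0.22), and in AGR cKO 77.9% were (median 0.11) against 95.6% (median 0.12). For genes of over 800 and up to 1500 bases the Cre- medians were 0.07 in the 499 other genes and 0.14 in the 26 members. For genes of over 1500 and up to 4000 bases the Cre- medians were -0.02 in the 3601 other genes and 0.22 in the 9 members. In AGR cKO they were 0.04 and 0.15. Rps15a, the 1 member of over 4000 bases, was at 0.29 in Cre- and -0.00396 in AGR cKO, where the 3413 other genes had medians of -0.01 and -0.01. The part of length in the members' differences was not tested.

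Markers of 8 kinds of cell were read in the same stress comparisons. Of the 12 astrocyte markers 9 were higher under stress in Cre- and 11 in AGR cKO (medians 0.11 and 0.09). All 8 endothelial markers were lower in both (medians -0.26 and -0.34), as were all 8 of ependyma and choroid plexus (-0.57 and -0.30). Mural cell and fibroblast markers were lower for 7 of 8 in both (-0.19 and -0.70). All 5 erythroid markers were higher in Cre- (median 0.15) and lower in AGR cKO (median -0.85). Oligodendrocyte lineage markers were lower for 4 of 7 in Cre- and 6 of 7 in AGR cKO (medians -0.01 and -0.25). Neuronal markers were higher for 11 of 12 in Cre- (median 0.15) and lower for 11 of 12 in AGR cKO (median -0.76), and microglial markers were at 0.03 and 0.02. At an unadjusted p under 0.05 in AGR cKO, 7 neuronal and 5 mural cell and fibroblast markers were lower, where 4.33% of all genes were. None of these 2 lists was higher, where 3.25% were, and each other list had at most 1 marker per direction. In Cre- only 2 ependyma and choroid plexus markers reached it, both lower, where 4.49% of all genes were. None of these genes was called. AGR cKO ESD 1, high in ribosomal proteins, had the lowest endothelial median of all libraries (-1.10), and Cre- ESD 1, also high, stood at 1.01. The part of these cells in the members' differences was not tested.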

How the data were processed

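Polyadenylated RNA of 12 cortical astrocyte preparations was measured by RNA-seq, per the labels' protocols from 1 µg of RNA with an integrity number over 7.0 and a stranded kit. Whole-number read counts, for genes and for transcripts, were deposited. The authors also deposited TPM and FPKM values per library, of which FPKM was not used here. Tools listed in the submitters' processing notes, with no role or order, are StringTie 1.3.4b, HISAT2 2.1.0, HISAT, Trimmomatic, DESeq2 and Bowtie2, and the build is mm10. The counting method and its use of strand are not given in the sources used here. Transcript length is in bases, per the file headers.

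Groups follow the sample titles. Column names give cre_M or cre_P, read as Cre minus and Cre plus, which the Nr3c1 counts match. In some groups the numbering inside the genotype label increases with the replicate, so titles decided.

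Gene counts were filtered with filterByExpr of edgeR 4.0.16 (R 4.3.3), which left 19163 genes, scaled with TMM factors and fitted with a quasi-likelihood model with 1 mean per group over all 12 libraries (8 residual degrees of freedom). The 7 contrasts were two-sided, with calls at 0.05 after Benjamini-Hochberg adjustment across the 19163 genes. Standard errors are the absolute log2 fold change divided by the root of the F statistic. Log2 CPM used a prior count of 2. The fit was checked on simulated counts. With 3 libraries against 3, the smallest p of an exact two-sided permutation test on 1 gene is 0.1. Gene length is the mean transcript length weighted by TPM.

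The text names, per contrast, the 3 members with the smallest p in each direction, the 5 highest and the 5 lowest by TPM, and a fixed set of paralogs and stalk proteins. Rps12 and Rps28 and the members named for groups without overlap were chosen after their values were seen. The members and lists were chosen with earlier results of these data known. The list of ribosomal proteins outside the symbol rule is not reported here. Alternatives were DESeq2 1.42.0, other scalings and filters, the groups compared alone, a replicate block, limma-trend 3.58.1 on log2(TPM + 1) or log2(TPM + 0.1), and each library left out.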

Additional observations from a re-analysis of the deposited data

How the results depend on the processing

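The median log2 fold changes of the members kept their direction under every other scaling, filter, tool and unit, at 0.13 to 0.22 for stress in Cre- and 0.11 to 0.15 in AGR cKO. With a library left out they were 0.125 to 0.30 and 0.069 to 0.18, and between genotypes -0.094 to 0.017 in control and -0.20 to -0.01 in ESD. On TPM, 6 members in Cre- and 3 in AGR cKO had an unadjusted p under 0.05 for higher levels under stress. The share of all genes is not given here for these TPM fits. The count of members called between genotypes in ESD was 1, and it was 0 without the low-count filter, with limma-trend on log2(TPM + 1) or log2(TPM + 0.1) and with only the groups compared, and 0 to 1 with a library left out; the cause was not tested. DESeq2 called more genes of all kinds: 26 and 23 for stress in Cre- and AGR cKO, 273 and 817 for genotype in control and ESD, 9 for the interaction, 38 for stress averaged and 1730 for genotype averaged, against 0, 0, 3, 200, 0, 0 and 668 with edgeR. Neither tool called a member under stress. Without the filter 100 genes were called between genotypes in ESD, and with only the groups compared 0 were, and 31 in control. With a library left out, genes called were 0 to 1 for stress in Cre- and for stress averaged, 0 to 63 and 2 to 280 for genotype in control and ESD, and 151 to 932 for genotype averaged. A fit that leaves 2 libraries in a group takes its spread from all groups.

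Replicate numbers are shared by the groups, but the pairing check was not met, since not every same-numbered pair correlated above 0.1: 7 of 18 did (median 0.0384, range -0.104 to 0.227), against 4 of 36 pairs with other numbers (median -0.00274). With the replicate block the member medians were 0.19 and 0.13 for stress in Cre- and AGR cKO, genotype in ESD gave 1 member and 244 genes called, genotype averaged 1 and 799, and genotype in control 0 and 2.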
